A study of Danio rerio with 6 samples.

Results

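The genes described here code for the enzymes that make serine (phgdh, psat1 and psph), for the enzymes that pass serine carbon through the mitochondrial folate pathway (shmt2, mthfd2, mthfd1l and aldh1l2), for the cytosolic counterpart shmt1 and for the asparagine synthetase asns. They were chosen by name, with earlier results of these data known, and matched to gene symbols without regard to case. Each of the 9 names matched 1 gene, and all 9 were among the 21602 genes tested, of 25859 genes in all.

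RNA was sequenced from zebrafish larvae at 5 days post fertilization (dpf), with poly(A) selection and no strand information. The knockout pools held hspd1-/- larvae and the control pools hspd1+/+ larvae, from crosses between heterozygous carriers. Each genotype had 3 pools of 5 larvae, without the tip of the tail fin, which was used for genotyping. HSP60, the product of hspd1, is a chaperonin that helps proteins fold after their import into mitochondria, and the comparison asks which transcripts differ when it is lost. The labels name 3 mating sets but do not tie a pool number to a set, and p-values measure the spread between these pools.

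Libraries held 18517874 to 20331675 counts. The transcript of hspd1 (ENSDARG00000056160) was at 73.4, 67.9 and 82.3 CPM (a gene's count relative to the TMM-normalized total of its library) in knockout pools 1, 2 and 3, against 124, 133 and 132 CPM in control pools 1, 2 and 3, and HSP60 protein was not measured. The labels call the tissue embryo, and markers of muscle, neurons, liver, exocrine pancreas and intestine were detected in every pool. Of 19 tested hepatocyte markers 17 fell, with a summed level of 4028 to 6222 CPM in the knockout pools and 11864 to 14619 CPM in the control pools. The fetuin gene ahsg2 was at 0 counts in every knockout pool. Of 19 markers of the exocrine pancreas 14 fell, with a sum of 1500 to 1745 CPM in the knockout pools and 4782 to 8151 CPM in the control pools. Absorptive intestine markers fell in 7 of 9 cases (1382 to 1980 CPM in the knockout pools, 2655 to 4006 CPM in the control pools), and in 4 without knockout pool 3 or control pool 2. Of 15 markers of proliferating cells 2 fell, against 7 without control pool 1 and 1 without any other pool. The sum of the 15 was 788 to 928 CPM in the knockout pools and 821 to 1355 CPM in the control pools. None of the 15 had a positive log2 fold change (median −0.40, knockout over control), and 8 were lower at an unadjusted p under 0.05. None of the 6 muscle or 4 neuron markers was called by edgeR, DESeq2 or limma-voom, nor had any an unadjusted p under 0.05. Of the 4 neuron markers 1 had a positive log2 fold change (median −0.17), and ELAVL3 was lower without overlap of the pools (−0.30). Of the 6 muscle markers 5 were positive (median 0.11). Of the symbols written, 6 of 12 for muscle and 5 of 9 for neurons matched no gene. In whole larvae, fewer cells of a type and less RNA per cell cannot be told apart, and the part of these shifts in the results below was not tested.

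Serine is built from the glycolytic intermediate 3-phosphoglycerate: PHGDH oxidizes it, PSAT1 transfers an amino group to the product, and PSPH removes the phosphate. SHMT2 in the mitochondrion, or SHMT1 in the cytosol, then moves a carbon unit of serine onto tetrahydrofolate and leaves glycine. Inside the mitochondrion MTHFD2 oxidizes this unit, after which MTHFD1L releases it as formate for purine synthesis in the cytosol, or ALDH1L2 burns it to CO2 and makes NADPH. In mouse and human cells several of these genes, together with ASNS, are known targets of the stress-induced transcription factor ATF4.

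Of the 9 genes 5 rose in the knockout pools and none fell (edgeR's quasi-likelihood test, with p under 0.05 after Benjamini-Hochberg adjustment over all genes tested). The genes that rose were psat1, phgdh, aldh1l2, asns and mthfd1l, while mthfd2, shmt1, shmt2 and psph did not pass. Across all genes tested 4.01% passed in either direction, 1.47% as higher and 2.54% as lower. The median log2 fold change of the 9 genes, knockout over control, was 0.81, and that of all genes tested was −0.0057. Without overlap between the pools, 8 of the 9 were higher in the knockout, against 10.8% of all genes tested (10.6% were lower without overlap, 21.4% in either direction). No gene of the 9 was lower by DESeq2 or limma-voom, or at an unadjusted p under 0.05.

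**Figure D1:**
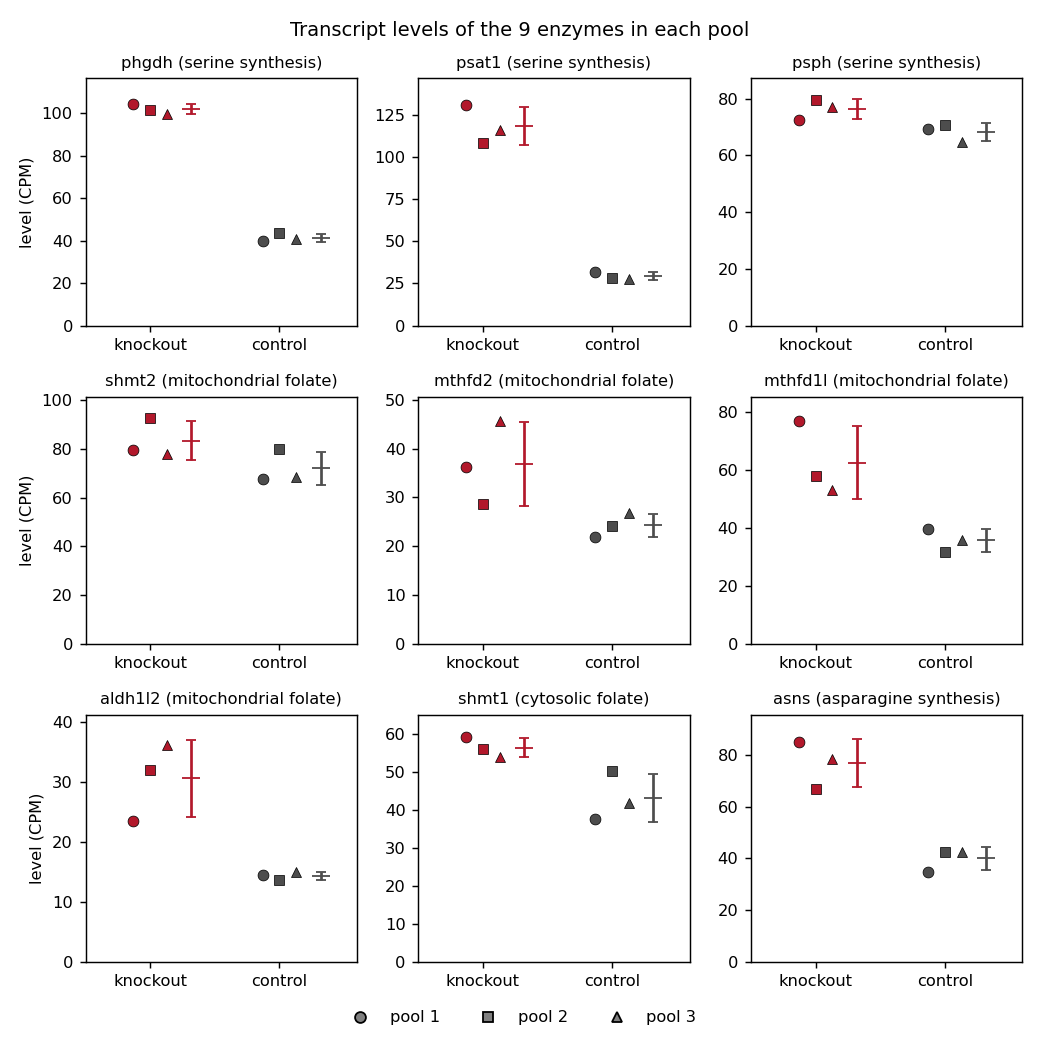
Level of each of the 9 enzyme genes (CPM, linear axis from 0) in the knockout pools (red) and the control pools (grey). Symbols are single pools, and bars are the mean ± SD of 3 pools; shmt2 is the 1 gene whose groups overlap.

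Of the 3 serine synthesis transcripts, those of the first and second enzymes rose and that of the third did not pass. For phgdh (ENSDARG00000001873) the levels were 104, 102 and 99.7 CPM in knockout pools 1, 2 and 3, against 40.0, 43.4 and 40.6 CPM in control pools 1, 2 and 3. The groups lay far apart, and the spread within the knockout pools (coefficient of variation 2.32%) was close to the counting error of 2.26%. The mean was 102 ± 2.37 CPM in the knockout pools and 41.3 ± 1.82 CPM in the control pools (SD, n = 3 each), a 2.47-fold rise (95% interval 2.12 to 2.87, edgeR adjusted p = 2.61e-05).

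psat1 (ENSDARG00000016733), the aminotransferase, stood at 131, 108 and 116 CPM in the knockout pools and 32, 28.1 and 27.8 CPM in the control pools. Every knockout pool was above every control pool by a wide margin. Its mean of 118 ± 11.3 CPM in the knockout, against 29.3 ± 2.35 CPM in the control (SD, n = 3 each), was a 4.04-fold rise (95% interval 3.38 to 4.83, edgeR adjusted p = 5.04e-06). This was the largest change of the 9 genes, at rank 47 of 21602 by log2 fold change and rank 20 by p, whereas phgdh had ranks 112 and 52.

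psph (ENSDARG00000040314), the phosphatase of the last step, had 72.5, 79.5 and 77.0 CPM in the knockout pools and 69.4, 70.6 and 64.7 CPM in the control pools. The groups did not overlap but were separated by less than their own ranges. The means were 76.3 ± 3.55 CPM in the knockout and 68.2 ± 3.12 CPM in the control (SD, n = 3 each). Its log2 difference of 0.16 did not pass (edgeR adjusted p = 0.477), and its 95% interval of −0.06 to 0.38 does not reach the log2 changes of phgdh (1.30, interval 1.09 to 1.52) or psat1 (2.01, interval 1.76 to 2.27).

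The ratio of psat1 to psph within a pool, a pair chosen after the values were seen, had log2 values of 0.85, 0.45 and 0.59 in the knockout pools and −1.11, −1.33 and −1.21 in the control pools. Every knockout value was above every control value; the sign of a single ratio has no meaning here, since gene lengths were not used. The difference of 1.85 had an exact two-sided permutation p = 0.1, the smallest that 3 against 3 pools allow (0.12 adjusted over 6 ratios compared). The 6 include pairs chosen from these same values, and for such pairs neither p is evidence for the shift. psat1 was also higher relative to phgdh in the knockout, a pair likewise chosen after the values were seen, with log2 ratios of 0.32, 0.09 and 0.22 in the knockout pools and −0.32, −0.63 and −0.54 in the control pools (difference 0.71, exact permutation p = 0.1). Reads of similar or overlapping genes could not be separated: in the RefSeq gene table (assembly GRCz12tu, another build than that of the files) psph overlaps nipsnap2 and shmt2 overlaps 2 genes, and the other 7 enzyme genes overlap none.

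In that table phgdh lies on the same chromosome as hspd1, with 149 tested genes placed between them. Of these 12 (8.05%) passed the test, against 6.22% of the 547 tested genes placed on the whole chromosome and 4.51% of the 14649 placed in the table. Of the 10 tested genes nearest to phgdh 1 passed by edgeR, 2 by DESeq2 and 1 by limma-voom, and 4 had an unadjusted p under 0.05. Among the 10 nearest to hspd1 none passed by edgeR, DESeq2 or limma-voom, and 1 had an unadjusted p under 0.05. Whether its place on the chromosome of the mutated gene plays a part in the change of phgdh was not tested.

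Of the 4 mitochondrial folate genes aldh1l2 and mthfd1l rose. aldh1l2 (ENSDARG00000070230), whose enzyme oxidizes formyl-tetrahydrofolate to CO2, had 23.5, 31.9 and 36.2 CPM in the knockout pools and 14.5, 13.6 and 14.9 CPM in the control pools. The control pools were tightly grouped and the knockout pools widely spread, with knockout pool 1 nearest to the controls. The mean was 30.6 ± 6.44 CPM in the knockout, against 14.3 ± 0.651 CPM in the control (SD, n = 3 each), a 2.13-fold rise (95% interval 1.69 to 2.68, edgeR adjusted p = 0.00193).

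mthfd1l (ENSDARG00000042221), which releases formate, had 76.6, 57.8 and 52.8 CPM in the knockout pools and 39.6, 31.5 and 35.7 CPM in the control pools. Knockout pool 1 was the highest of all, and the other 2 knockout pools were closer to the control range. The 1.75-fold rise (95% interval 1.39 to 2.21) had an edgeR adjusted p = 0.0118, but missed the threshold when control pool 2 (0.0562) or control pool 3 (0.0593) was left out, with a range of 4.07e-05 to 0.0593 over 13 alternative fits.

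For mthfd2 (ENSDARG00000098646), the dehydrogenase of the same pathway, the levels were 36.3, 28.6 and 45.7 CPM in the knockout pools and 21.9, 24.1 and 26.7 CPM in the control pools. Knockout pool 2 lay just above the highest control pool, and the knockout pools varied more than the control pools (coefficients of variation 23.3% and 9.94%, with counting errors of 3.82% and 4.67%). The log2 difference of 0.60 (95% interval 0.25 to 0.96) did not pass (edgeR adjusted p = 0.0733). It passed without knockout pool 2 (0.0166), with upper-quartile scaling (0.0422) and with DESeq2 (0.0124), with a range of 0.0124 to 0.174 over the 13 alternative fits.

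shmt2 (ENSDARG00000104414), the entry enzyme, stood at 79.4, 92.6 and 78.0 CPM in the knockout pools and 67.6, 79.8 and 68.6 CPM in the control pools. The groups overlapped, since control pool 2 was above knockout pools 1 and 3. The log2 difference of 0.21 (95% interval −0.04 to 0.46) did not pass (edgeR adjusted p = 0.426). Relative to shmt2, mthfd1l had log2 ratios of −0.05, −0.68 and −0.56 in the knockout pools and −0.77, −1.34 and −0.94 in the control pools. The difference of 0.59, in a pair chosen after the values were seen, left no overlap (exact permutation p = 0.1, the smallest possible). That p is no evidence for the shift, since the choice used the same values.

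**Figure D2:**
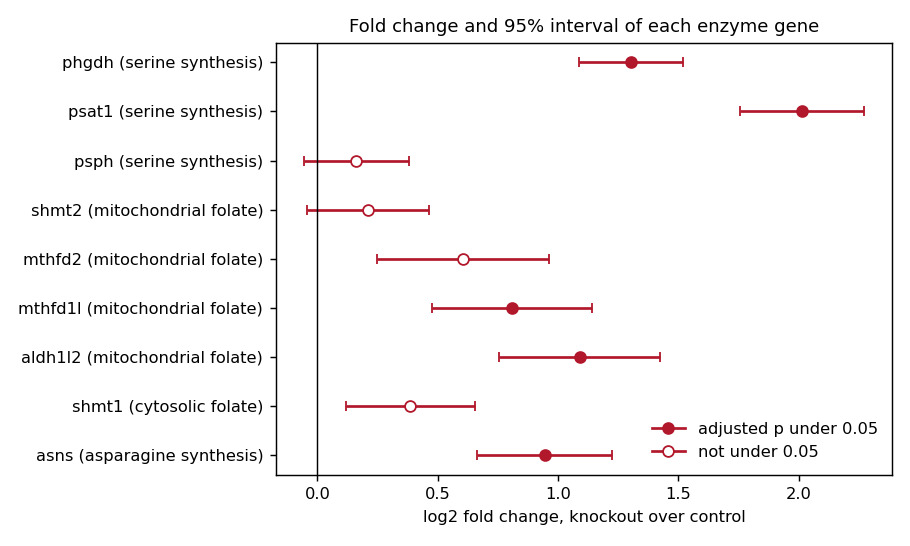
Log2 fold change (knockout over control) of the 9 genes with its 95% interval from the edgeR quasi-likelihood test. Filled points passed an adjusted p of 0.05; the intervals of psph (−0.06 to 0.38) and shmt2 (−0.04 to 0.46) reach below 0.

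shmt1 (ENSDARG00000052816), the cytosolic counterpart of shmt2, had 59, 56.1 and 54.1 CPM in the knockout pools and 37.7, 50.2 and 41.8 CPM in the control pools. The groups did not overlap, and the spread was in the controls, where pool 2 came close to the knockout range. Its log2 difference of 0.39 (95% interval 0.12 to 0.66) did not pass (edgeR adjusted p = 0.13).

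The ratio of shmt2 to shmt1, mitochondrial over cytosolic, had log2 values of 0.42, 0.72 and 0.53 in the knockout pools and 0.84, 0.67 and 0.71 in the control pools. The groups overlapped, and the difference of −0.19 had an exact permutation p = 0.3. For the formyl-tetrahydrofolate dehydrogenases, aldh1l2 over its cytosolic counterpart aldh1l1 had log2 ratios of −1.44, −0.59 and −0.49 in the knockout pools and −1.96, −2.16 and −1.91 in the control pools. Every knockout value was above every control value, and the difference was 1.17 (exact permutation p = 0.1, the smallest possible). ALDH1L1 itself, at 54.4 ± 8.42 CPM in the knockout and 58.2 ± 2.84 CPM in the control (SD, n = 3 each), had a log2 difference of −0.10 (95% interval −0.37 to 0.18, edgeR adjusted p = 0.76).

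mthfd2 over its homolog mthfd2l had log2 ratios of 4.10, 4.64 and 4.60 in the knockout pools and 3.71, 3.80 and 3.90 in the control pools. The groups did not overlap (difference 0.64, exact permutation p = 0.1). The level of mthfd2l was low, at 39, 20 and 34 counts in the knockout pools and 31, 30 and 32 counts in the control pools, so its own log2 difference of −0.01 has a 95% interval of −0.61 to 0.58. The ratios rest on these low counts too. Knockout pool 2 had the highest ratio, with 20 counts of mthfd2l and the lowest mthfd2 level of the knockout pools (28.6 CPM).

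**Figure D3:**
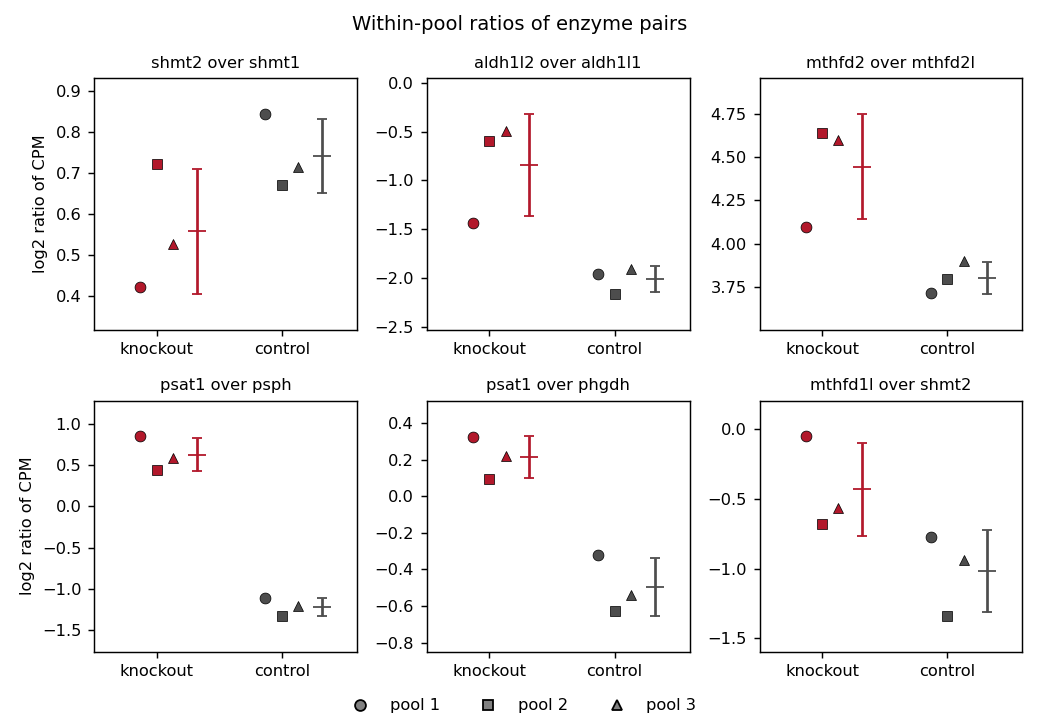
Log2 ratio of CPM of 2 enzyme genes within each pool (symbols), with the mean ± SD of 3 pools (bars), in knockout (red) and control pools (grey); axes do not start at 0 and differ between panels. The groups overlap for shmt2 over shmt1 (difference −0.19) and are apart in the other 5 panels.

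asns (ENSDARG00000016375), which makes asparagine from aspartate and glutamine, had 84.9, 66.9 and 78.6 CPM in the knockout pools and 34.9, 42.4 and 42.6 CPM in the control pools. The lowest knockout pool was well above the highest control pool. The mean of 76.8 ± 9.12 CPM in the knockout, against 39.9 ± 4.40 CPM in the control (SD, n = 3 each), was a 1.92-fold rise (95% interval 1.58 to 2.34, edgeR adjusted p = 0.00153). Among enzymes of the amino acids that feed or follow it, ASPG, named for an asparaginase, rose to 51.7 ± 2.18 CPM in the knockout, against 34.1 ± 2.02 CPM in the control (log2 fold change 0.60, edgeR adjusted p = 0.00633).

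The 9 genes did not share 1 order of pools. Knockout pool 1 was the highest knockout pool for 5 genes (phgdh, psat1, mthfd1l, shmt1 and asns) and the lowest for 2 (psph and aldh1l2). Pool 3 was the highest for mthfd2 and aldh1l2, and pool 2 for psph and shmt2. Summed over the 4 mitochondrial folate genes, levels were nonetheless even, at 216, 211 and 213 CPM in the knockout pools and 144, 149 and 146 CPM in the control pools. For the 3 serine synthesis genes the sums were 308, 290 and 293 CPM in the knockout pools and 141, 142 and 133 CPM in the control pools. The ratio of the group means was 2.14 for the serine synthesis genes and 1.46 for the folate genes. Each sum weights genes by their counts, without transcript length, so the 2 ratios were not compared.

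The 5 genes whose levels lay closest to phgdh over the 6 pools, as the root mean square difference of log2 levels from the control mean among 19576 genes, were plin3, YARS1, SIL1, TARS1 and higd1a (0.09 to 0.12). plin3 codes for a lipid droplet coat protein, YARS1 and TARS1 for the cytosolic tyrosyl- and threonyl-tRNA synthetases, SIL1 for an exchange factor of the endoplasmic reticulum chaperone BiP, and higd1a for a mitochondrial inner membrane protein. YARS1 had 117, 110 and 109 CPM in the knockout pools and 38.2, 44.3 and 48.1 CPM in the control pools. The 5 genes had log2 fold changes of 1.18 to 1.36, against 1.30 for phgdh. Among the other 8 enzyme genes, aldh1l2 (0.27, rank 34 beside the 19576 genes) and asns (0.28, rank 41) were nearest to phgdh and psph (0.81) was farthest. This distance mostly follows the size of the knockout change, so it is not separate evidence of shared variation between pools.

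Around the 9 genes, 6 lists of related enzymes, also chosen with earlier results of these data known, were read from the same test. Of their 93 tested genes 6 were higher and 4 lower, beside 1.47% higher and 2.54% lower among all genes tested. Glycine cleavage and other mitochondrial one-carbon genes had 1 of 16 higher and 1 lower, with a median log2 fold change of −0.0037. DESeq2 called 1 of them higher and 3 lower, and limma-voom 1 higher and 1 lower. Without knockout pool 1 the edgeR test called 3 lower. GLDC, the glycine decarboxylase, rose to 116, 169 and 127 CPM in the knockout pools, against 101, 67.7 and 69.5 CPM in the control pools, and control pool 1 was close to the lowest knockout pool. Its log2 fold change was 0.79 (edgeR adjusted p = 0.0373), which did not pass without knockout pool 2 (0.138), control pool 2 (0.129) or control pool 3 (0.157). AMT, its partner aminomethyltransferase, chosen after its values were seen, was at 20.6 ± 3.15 CPM in the knockout and 30.9 ± 4.49 CPM in the control (SD, n = 3 each; log2 difference −0.58, edgeR adjusted p = 0.0514), and passed as lower with DESeq2 (0.0117) and when knockout pool 1 (0.0393) or control pool 1 (0.0274) was left out. DMGDH, a dehydrogenase of choline breakdown that loads mitochondrial folate, fell (log2 fold change −0.48, edgeR adjusted p = 0.027), but not without knockout pool 2 (0.129), knockout pool 3 (0.0697), control pool 1 (0.0727) or control pool 3 (0.107). SFXN1, named for the mitochondrial serine carrier, had a log2 difference of 0.31 (edgeR adjusted p = 0.316).

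None of 15 tested genes of the cytosolic folate cycle and folate uptake passed with edgeR, DESeq2 or limma-voom, and at an unadjusted p under 0.05 1 was higher and 1 lower. The list included 2 genes with the symbol MTHFD1, the cytosolic enzyme that carries the folate steps beyond formate: ENSDARG00000018266 had a log2 difference of 0.14 (95% interval −0.13 to 0.40) and ENSDARG00000040492 one of −0.38 (−0.67 to −0.10, edgeR adjusted p = 0.156). Likewise none of 10 tested genes of lower glycolysis around 3-phosphoglycerate passed with any of these tools or at an unadjusted p under 0.05. Their log2 differences were −0.23 to 0.24. The symbol pgk1 of this list matched no gene, so the kinase step that makes 3-phosphoglycerate was not read. By edgeR the 2 lists had medians of 0.05 and 0.06.

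Purine synthesis, which takes up formyl groups from folate, had 3 of 14 genes higher and none lower (2 lower at an unadjusted p under 0.05, 0 by DESeq2 or limma-voom), with a median of 0.07. ATIC, which adds the second formyl group, had 113, 104 and 80.5 CPM in the knockout pools and 53.8, 65.9 and 58.1 CPM in the control pools. These groups were apart, and the log2 fold change was 0.74 (edgeR adjusted p = 0.0126; 0.061 without knockout pool 2 and 0.0698 without control pool 3). GART, for the first formyl group, was added after its values were seen. Its groups overlapped, and its log2 difference of 0.16 did not pass (edgeR adjusted p = 0.536). PPAT, which starts the pathway, and PAICS rose by log2 values of 0.61 and 0.84 (edgeR adjusted p = 0.0205 and 0.0437). PPAT did not pass without knockout pool 2 (0.0938), control pool 2 (0.0629) or control pool 3 (0.0537), and PAICS not without knockout pool 1 (0.129), knockout pool 2 (0.141), control pool 2 (0.146) or control pool 3 (0.186).

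Of 14 genes for enzymes that use serine or glycine, 2 fell and none rose (2 higher at an unadjusted p under 0.05, 0 by DESeq2 or limma-voom), with a median of −0.07. DESeq2 called 3 of the 14 lower. An AGXT gene (ENSDARG00000052099), for the aminotransferase that makes glycine from glyoxylate, was at 24.6, 27.9 and 21.6 CPM in the knockout pools and 43.2, 50.5 and 47.6 CPM in the control pools (log2 fold change −0.93, edgeR adjusted p = 0.00121). The other AGXT gene of the list (ENSDARG00000018478), added after its values were seen, was at 141 ± 22.6 CPM in the knockout and 171 ± 18.8 CPM in the control (SD, n = 3 each). Its groups overlapped, and the log2 difference of −0.27 did not pass (edgeR adjusted p = 0.377). SDSL, named for a serine dehydratase, fell with a log2 fold change of −0.87 (edgeR adjusted p = 0.0139; 0.0507 without knockout pool 2 and 0.0628 without control pool 3). AGXT is known as a liver enzyme, and the hepatocyte markers fell in the same pools by the sums given above. Whether that fall plays a part in the AGXT values, or in those of the other related enzymes that fell, was not tested. Among 24 genes of glutamate, glutamine, aspartate, alanine and proline metabolism 2 rose and 1 fell, with a median of 0.13. DESeq2 called 3 of the 24 higher and 2 lower. Besides ASPG, the proline synthesis gene pycr1b rose (log2 fold change 0.53, edgeR adjusted p = 0.0199), but not without knockout pools 2 (0.0765) or 3 (0.065) or control pools 2 (0.0665) or 3 (0.0728). The gene that fell was a glutaminase, GLS2 (ENSDARG00000069095), at 8.11 ± 0.715 CPM in the knockout and 15.7 ± 1.55 CPM in the control (SD, n = 3 each; log2 fold change −0.95, edgeR adjusted p = 0.00162). The other GLS2 gene (ENSDARG00000002917), added after its values were seen, lay the other way without overlap, at 11.6 ± 2.12 CPM in the knockout and 7.60 ± 1.76 CPM in the control (SD, n = 3 each), but its log2 difference of 0.61 did not pass (edgeR adjusted p = 0.134).

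**Figure D4:**
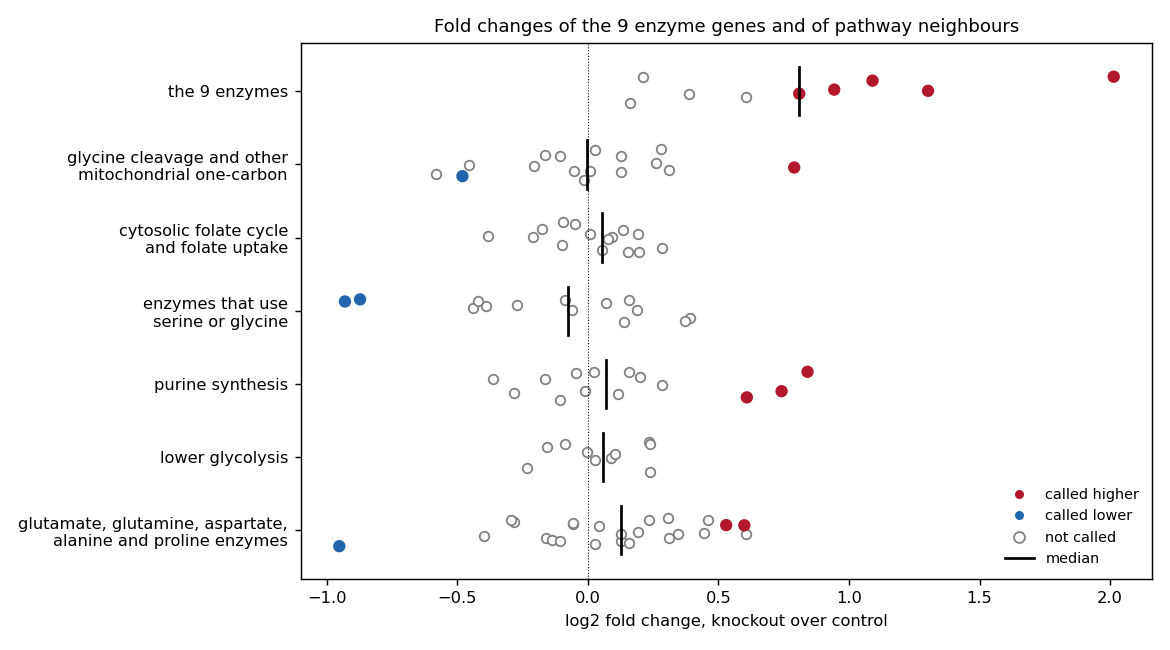
Log2 fold change (knockout over control) of each tested gene, 1 point per gene, for the 9 enzyme genes and 6 lists of related enzymes; filled points passed an adjusted p of 0.05 (red higher, blue lower) and black lines are medians. The median of the 9 genes is 0.81, and the medians of the lists lie between −0.07 and 0.13.

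The calls of phgdh, psat1, aldh1l2 and asns held in all 13 alternative fits, with edgeR, DESeq2 and limma-voom adjusted p of at most 0.000393, 9.98e-05, 0.00817 and 0.00785. Over these fits the log2 fold change of psat1 ran from 1.94 to 2.10 and that of aldh1l2 from 0.96 to 1.25. Those of psph, shmt2 and shmt1 passed in none, with log2 differences of 0.13 to 0.21, 0.13 to 0.30 and 0.31 to 0.52. All 9 genes kept a positive sign in every one of them.

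**Figure D5:**
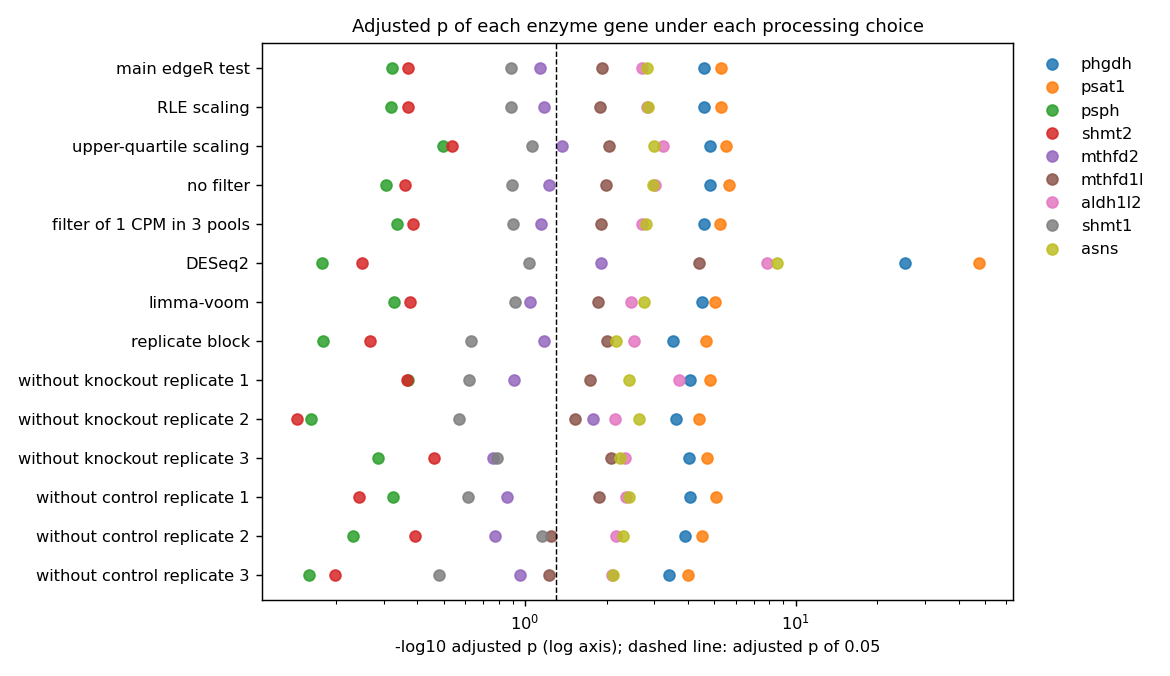
Adjusted p of the 9 genes under the main edgeR test and 13 other processing choices, as −log10 on a log axis, with 0.05 as a dashed line. mthfd1l falls left of the line without control pool 2 or 3, and mthfd2 lies right of it in 3 settings.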

How the data were processed

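Deposited values are estimated counts per Ensembl gene, stored as whole numbers by the authors, so rounding changed nothing. The build GRCz11 and the tools Salmon, DESeq2, Trim Galore and FastQC are named per the submitters' processing notes, and versions and roles are not given in the sources used here. Gene symbols were looked up by Ensembl ID. The 9 enzymes are printed in lower case, others as the lookup gives them. No pool was a copy of another (chi-square per degree of freedom between pools of 1 genotype 7.22 to 20.6), and each counted as 1 sample.

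Genes were kept by filterByExpr, scaled by TMM factors and tested with edgeR 4.0.16 (R 4.3.3, quasi-likelihood, genotype as the only term, Benjamini-Hochberg over 21602 genes, threshold 0.05). Intervals are 95% and follow from the F statistic. Log2 CPM used a prior count of 2. The fit was tested on simulated data.

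The genes and lists were chosen with earlier results of these data known. From each list up to 4 called genes with the smallest p are named, with preset folate genes and the 5 genes nearest to phgdh; the least changed genes of each list are not printed. Within-pool ratios were compared by exact permutation over pools. Alternatives were other scalings, filters, thresholds, DESeq2 1.42.0, limma-voom (limma 3.58.1), the replicate number as a block and leaving out each pool. Levels of different genes are not compared, because transcript lengths and sequences were not used here.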

Additional observations from a re-analysis of the deposited data

How the results depend on the processing

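All fold changes of the 9 enzyme genes kept their direction. At an adjusted p of 0.01, 156 genes were higher and 288 lower over all genes, and leaving out 1 pool gave 189 to 346 higher and 360 to 635 lower. The number of the 9 enzyme genes called higher was 4 to 6 when 1 pool was left out. Among the related enzymes 1 to 7 were higher and 2 to 6 lower when 1 pool was left out, and 8 were lower with DESeq2. The low-count gene mthfd2l changed sign, to 0.037 with upper-quartile scaling, 0.22 without knockout pool 2 and 0.017 without control pool 3, with a range of −0.21 to 0.22 when 1 pool was left out. All 6 ratios kept their sign without any 1 pool and with a prior count of 0.5. The cause of these shifts was not tested. Same-numbered pools did not deviate together (correlations −0.20, 0.10 and −0.07), and those of unlike number had correlations of −0.17 to 0.22. With 3 pools per genotype these values cannot decide whether the numbers mark mating sets. With the replicate number as a block, 251 genes were higher and 487 lower, 5 of the 9 enzyme genes and 4 related enzymes were higher, and 3 related enzymes were lower; GLDC (adjusted p = 0.0647), DMGDH (0.0817) and pycr1b (0.0616) did not pass there. Levels per kilobase were not run, because no transcript length was at hand. mthfd2l had 20 to 39 counts per pool, and its knockout pools varied by 31.5% beside a counting error of 18.5%; the 9 enzyme genes had 250 to 2521 counts per pool.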

Other observations

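In the RefSeq gene table (assembly GRCz12tu) psat1 and mthfd2 lie on the same chromosome with 10 tested genes between them, of which 2 passed the test: EIF2B1 rose and aldh2.2, an aldehyde dehydrogenase gene, fell (log2 fold change −0.65, edgeR adjusted p = 0.012). Next to psat1 lies ISCA1, an assembly factor of iron-sulfur clusters, which rose 2.17-fold (95% interval 1.73 to 2.71, edgeR adjusted p = 0.00137). EIF2B1, a subunit of the exchange factor of eIF2, lies near mthfd2 and rose 1.70-fold (adjusted p = 0.00655). DDIT3, a stress-induced transcription factor, lies near shmt2 and rose 1.65-fold (adjusted p = 0.00161), while shmt2 itself did not pass. Besides aldh2.2 the neighbours that fell were ENSDARG00000019772 (log2 fold change −3.64), apoa1b (−1.03) and cyp2y3 (−0.98) near psph, and PNPLA3 (−1.16) near aldh1l2. Of these, apoa1b is also among the hepatocyte markers counted above. zgc:92380 near phgdh (0.84) and si:dkey-25e12.3 near mthfd1l (0.74) rose. The call of si:dkey-25e12.3 (edgeR adjusted p = 0.0343) held in 7 of the 13 alternative fits. It was lost with the replicate number as a block and without knockout pool 2 or 3 or control pool 1, 2 or 3 (at most 0.129). The call of aldh2.2 held in 9 of 13, and was lost without pool 2 or 3 of either genotype (at most 0.0706). The calls of the other neighbours held in all 13. Over all 9 enzyme genes, taking the 5 nearest tested genes on each side, 10 of 90 neighbours passed (11.1%, 5 higher and 5 lower), against 4.51% of all genes placed in that table. These neighbours were counted after the values of the enzymes were seen, and the difference in share was not tested.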
